A study of Homo sapiens with 62 samples.

Results

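The human embryonic stem cell (hESC) line WIBR3 was compared at 1 h and at 0 h of a time course run with and without PF-127. PF-127 (Pluronic F-127) is a block copolymer that dissolves in cold medium and gels on warming. The comparison used 8 of the 62 polyA RNA-seq libraries of the study, taken by the time in their names and labels: 4 libraries of 0 h and 4 of 1 h. At each time 2 libraries were without PF-127 and 2 were with it. The difference tested was the average change with time over both arms, so a called gene need not have changed in each arm. All 8 libraries came from cells labelled WT. The libraries without PF-127 carry the treatment label NT96 and those with it the label PN96, although all titles begin with PN96; the labels do not say what these names stand for or what was done to the cells at 0 h. The other hESC libraries of the time course, 8 of 4 h and 24 h, are used only to show the levels at later times.

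Levels are TPM as deposited by the authors, in which every library adds up to a fixed total. The log2 differences (1 h minus 0 h, ± SE) were fitted with limma to log2(TPM + 1), a scale that understates the change of genes with few TPM, and the folds given are on that scale. A gene rose or fell where the adjusted p, over all 18318 genes tested, was under 0.05. Where 4 values are given for a time, the libraries without PF-127 come first, replicates 1 and 2, and then those with it. The labels do not tell whether replicates were separate cultures, and the p-values therefore reflect only how these 8 libraries vary, which may be technical. No read counts were used here, and library depth is therefore unknown. In each library 16989 to 17321 genes were at 1 TPM or more.

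Markers of pluripotent cells stood high in all 8 libraries: POU5F1 between 149.8 and 203 TPM, LIN28A between 1415 and 1556 TPM, and DNMT3B between 1016 and 1075 TPM. ZFP42 (REX1), a further pluripotency marker, did not pass 0.368 TPM. Of the markers of other lineages some were near 0 and some were not. TBXT (primitive streak) was at most 0.750 TPM, PAX6 (neural) at most 0.296, SOX17 (endoderm) at most 0.312, CDX2 (trophoblast) at most 0.198, and PECAM1 and CDH5 (endothelium) at most 0.182 and 0.232 TPM. Of 9 neural markers 3 passed the filter on low levels (1 TPM or more in at least 2 libraries): FABP7 rose with a log2 difference of 0.41 ± 0.10, OLIG3 fell with -0.65 ± 0.08 and SOX3 was at 18.6 ± 3.36 and 18.6 ± 1.203 TPM. Of 9 streak markers 2 passed it, and CER1 rose with 0.61 ± 0.12. FABP7 lost its call in 6 and CER1 in 5 of the 8 fits that left out a library. None of the 3 trophoblast and amnion markers among 7 that passed it, TFAP2C, KRT7 and GABRP, was called, with a summed level of the list between 25.2 and 31.9 TPM at 0 h and between 26.1 and 29.6 TPM at 1 h. The stromal list, 3 of 7 past the filter, summed to between 222.6 and 239.7 TPM at 0 h and to between 189.8 and 207 TPM at 1 h. In it COL1A1 fell from 93.1 ± 6.18 to 72.2 ± 5.802 TPM, in every fit that left out a library, and COL1A2 from 29.3 ± 1.45 to 24.3 ± 1.97 TPM, which lost its call in 7 of the 8. THY1 was at 110.1 ± 2.56 and 101.3 ± 3.29 TPM (adjusted p = 0.081), and LUM and DCN did not pass 0.183 and 0.0180 TPM. KDR, a growth factor receptor of endothelium, was high, between 138.5 and 178.8 TPM over the 8 libraries. It fell with a log2 difference of -0.31 ± 0.03, also in every fit that left out a library. The part of these markers in the results that follow was not tested. In bulk RNA, fewer cells of a type and less RNA per cell cannot be told apart.

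Cells answer fresh medium, growth factors, a change of shape or a stress with a quick wave of transcription. Its first genes, the immediate early genes, need no new protein, and they encode transcription factors of the FOS, JUN, EGR and KLF families along with kinases and RNA-binding proteins that end the wave. Several pathways write to the same wave: YAP and TEAD drive CCN1, CCN2 and AMOTL2; BMP and SMAD drive the ID genes; Notch drives the HES genes; and ERK drives EGR1 and its own inhibitors, the Sprouty proteins and dual-specificity phosphatases. In hESC, which are grown with FGF, ERK signalling and its feedback genes are active at rest.

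At 1 h, 1898 of the 18318 genes (10.4%) differed from 0 h, 775 of them higher (4.23%) and 1123 lower (6.13%). Most changes were small: 668 of the rises and 991 of the falls were under 1.5-fold, and the median absolute log2 difference of the called genes was 0.30. Among the genes that changed at least 2-fold, rises outnumbered falls, with 49 (0.267%) against 15 (0.0819%); the counts were 62 and 39 with a pseudocount of 0.1, and 58 and 40 without mitochondrial mRNAs. Among called genes that reached a mean of 5 TPM at the higher time, with no overlap of the groups, the largest rises were HES1, FOSB, GADD45B, AMOTL2, ID4, CCN1 and NUAK2. The largest falls of protein-coding genes by the same rule were ZIC5, SPRY1 and ZFP36L2, followed by ZIC2, JUNB and EGR1. Groups did not overlap for 1801 of the 1898 called genes; over all genes tested, all 4 libraries of 1 h lay above all 4 of 0 h for 7.65% and below them for 12.1%. The number called rests on the libraries used: it was between 596 and 908 when any of 7 libraries was left out, and 2153 without the remaining 1, replicate 2 of 0 h without PF-127.

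**Figure D1:**
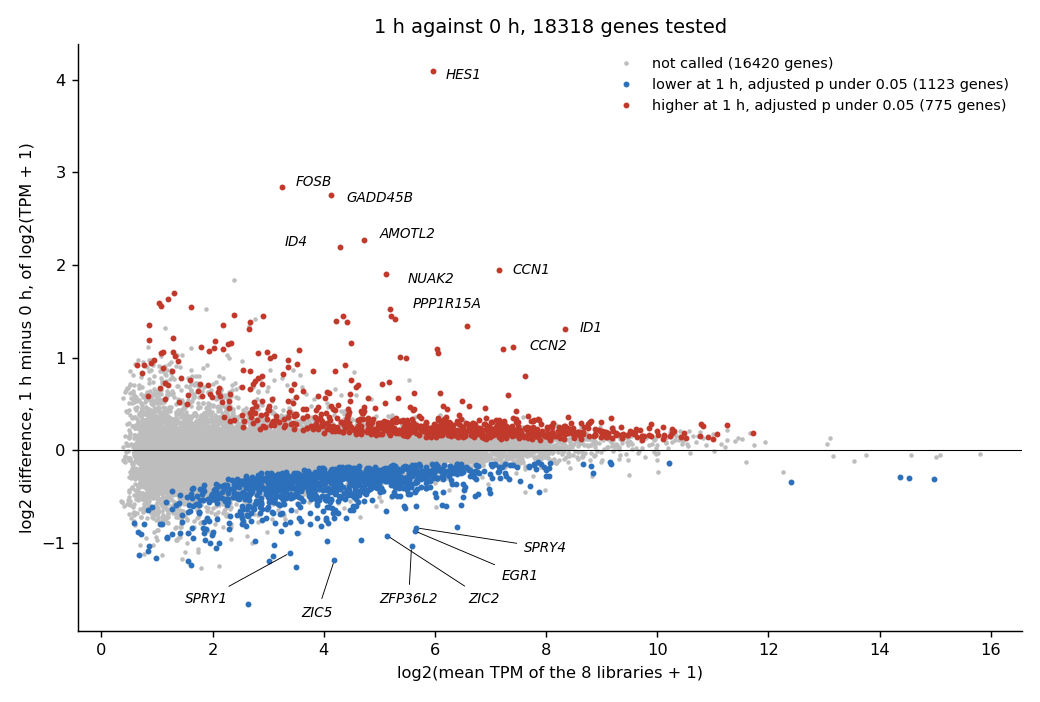
Each point is a gene, with its mean level over the 8 libraries (log2 of TPM + 1) on the x axis and its log2 difference, 1 h minus 0 h, on the y axis; red and blue points passed the test. HES1 stands alone at 4.096, and the named falls lie between -0.84 and -1.18.

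HES1, a transcriptional repressor best known as a Notch target, whose level oscillates in many progenitor cells, rose most. Its level was 4.86, 7.08, 5.17 and 6.54 TPM at 0 h and 109.5, 116, 123 and 116 TPM at 1 h. All 4 libraries of 1 h were far above all 4 of 0 h, and the arms were alike, with log2 differences of 4.04 and 4.15 without and with PF-127. The log2 difference over both arms was 4.096 ± 0.10 (17.1-fold, adjusted p = 5e-07 by limma). At 4 h the level was between 11.2 and 13.9 TPM, and at 24 h between 5.56 and 8.31 TPM. FOSB, a FOS family partner of JUN in the AP-1 factor, went from 1.14, 1.52, 1.44 and 1.23 TPM to 15.9, 13.7, 16.6 and 16.6 TPM, with no overlap and a log2 difference of 2.84 ± 0.09 (adjusted p = 1.5e-06). GADD45B, a stress sensor that acts on p38 and JNK signalling, stood at 4.68, 3.08, 3.59 and 2.77 TPM at 0 h and 26.5, 33.4, 29.8 and 27.4 TPM at 1 h. Its lowest library of 1 h was well above its highest of 0 h, and the log2 difference was 2.75 ± 0.13 (adjusted p = 2.1e-05).

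The sequence just before the start of the large movers is shown so that the letters of well-known response elements can be seen in place. Of the 8 genes with the largest rises, 6 are in the RefSeq promoter table (GRCh38.p14): HES1 (chr3:194135898-194136144, plus strand), FOSB (chr19:45467746-45467994, plus), GADD45B (chr19:2475877-2476121, plus), ID4 (chr6:19837120-19837369, plus), NUAK2 (chr1:205321792-205321995, minus) and PPP1R15A (chr19:48872171-48872391, plus). AMOTL2 and CCN1 were not matched. EGR1 (chr5:138465229-138465478, plus) is added as the classic serum-response gene that went down. Each is printed 5′ to 3′. It begins 250 bases before the RefSeq start and ends before that start or the GENCODE release 29 start, whichever comes first. The prints therefore hold 204 to 250 bases, while the positions given below them count from the RefSeq start. Capitals mark every match, on either strand, to the CRE (TGACGTCA) or its core TGACG, the TEAD element CATTCC, the E-box CACGTG and the CArG box.
HES1: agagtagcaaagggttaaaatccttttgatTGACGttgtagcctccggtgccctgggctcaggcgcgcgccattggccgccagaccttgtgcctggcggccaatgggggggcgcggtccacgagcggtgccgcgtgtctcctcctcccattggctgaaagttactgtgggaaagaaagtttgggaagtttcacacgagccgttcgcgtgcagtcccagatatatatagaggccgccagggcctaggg
FOSB: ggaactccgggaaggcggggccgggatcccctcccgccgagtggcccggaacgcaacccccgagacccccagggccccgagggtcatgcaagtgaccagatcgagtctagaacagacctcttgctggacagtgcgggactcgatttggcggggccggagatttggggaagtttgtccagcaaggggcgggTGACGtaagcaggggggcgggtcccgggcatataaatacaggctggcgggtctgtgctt
GADD45B: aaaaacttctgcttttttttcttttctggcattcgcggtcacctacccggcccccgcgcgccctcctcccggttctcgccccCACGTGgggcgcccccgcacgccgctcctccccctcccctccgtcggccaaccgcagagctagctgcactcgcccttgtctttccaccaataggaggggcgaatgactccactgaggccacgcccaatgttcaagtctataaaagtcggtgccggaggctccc
ID4: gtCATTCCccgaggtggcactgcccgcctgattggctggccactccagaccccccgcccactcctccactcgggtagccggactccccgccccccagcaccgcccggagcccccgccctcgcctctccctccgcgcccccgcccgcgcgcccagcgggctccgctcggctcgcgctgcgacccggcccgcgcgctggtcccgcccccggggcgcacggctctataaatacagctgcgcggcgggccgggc
NUAK2: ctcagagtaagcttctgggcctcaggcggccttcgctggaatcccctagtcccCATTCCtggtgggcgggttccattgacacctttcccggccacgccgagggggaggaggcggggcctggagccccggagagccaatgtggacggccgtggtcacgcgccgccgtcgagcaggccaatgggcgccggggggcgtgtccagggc
PPP1R15A: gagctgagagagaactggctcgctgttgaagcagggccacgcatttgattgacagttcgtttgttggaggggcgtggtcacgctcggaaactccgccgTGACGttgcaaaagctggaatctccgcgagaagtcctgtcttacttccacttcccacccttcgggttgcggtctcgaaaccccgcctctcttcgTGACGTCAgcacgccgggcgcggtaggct
EGR1: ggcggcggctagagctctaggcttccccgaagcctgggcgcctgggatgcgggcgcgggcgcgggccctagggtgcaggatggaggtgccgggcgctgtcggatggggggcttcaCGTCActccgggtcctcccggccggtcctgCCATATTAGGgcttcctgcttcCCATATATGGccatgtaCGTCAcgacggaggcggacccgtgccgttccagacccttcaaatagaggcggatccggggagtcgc
HES1 and FOSB each hold the core TGACG, 220 to 216 and 60 to 56 bases before the RefSeq start. PPP1R15A holds a whole CRE, which contains the core on both strands, 58 to 51 bases before it, and a further core at 152 to 148. ID4 and NUAK2 hold the TEAD element, at 248 to 243 and 197 to 192 bases, and GADD45B an E-box at 168 to 163 bases. EGR1 holds CArG boxes, the element bound by SRF, at 105 to 96 and at 83 to 74 bases, and the core TGACG, read on the other strand, at 135 to 131 and at 66 to 62. The 238 bases before the GENCODE start of ZIC2, another large fall, were searched in the same way. They hold none of these elements and are not printed. Searched in the whole window of 250 bases before to 50 after the start, the core TGACG was in 6 of the 17 matched promoters among the 25 largest rises (35.3%) and in 34.4% of the 8357 matched promoters of tested genes, so its share was near the background. The TEAD element was in 5 of the 17 (29.4%: CCN2, ID1, ID4, NUAK2 and THBS1), against 10.7% of the tested and 14.4% of all 22114 promoters; over all 397 matched promoters of genes that rose it was in 9.32%, and it was in 16.7% of the 18 matched promoters of the 25 largest falls. The E-box CACGTG was in 4 of the 17 (23.5%), against 9.86% of the tested and 8.82% of the 397. The CArG box was in EGR1 alone among the 18 matched promoters of the 25 largest falls (5.56%) and in 0.945% of the tested. These shares describe letters in a window, not bound sites. The AP-1 element TGANTCA was in 1 of the 17 (PSMD6-AS1) and in 4.34% of the tested, and the SMAD element GTCTAGAC in none of the 17 and in 0.179% of the tested.

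**Figure D2:**
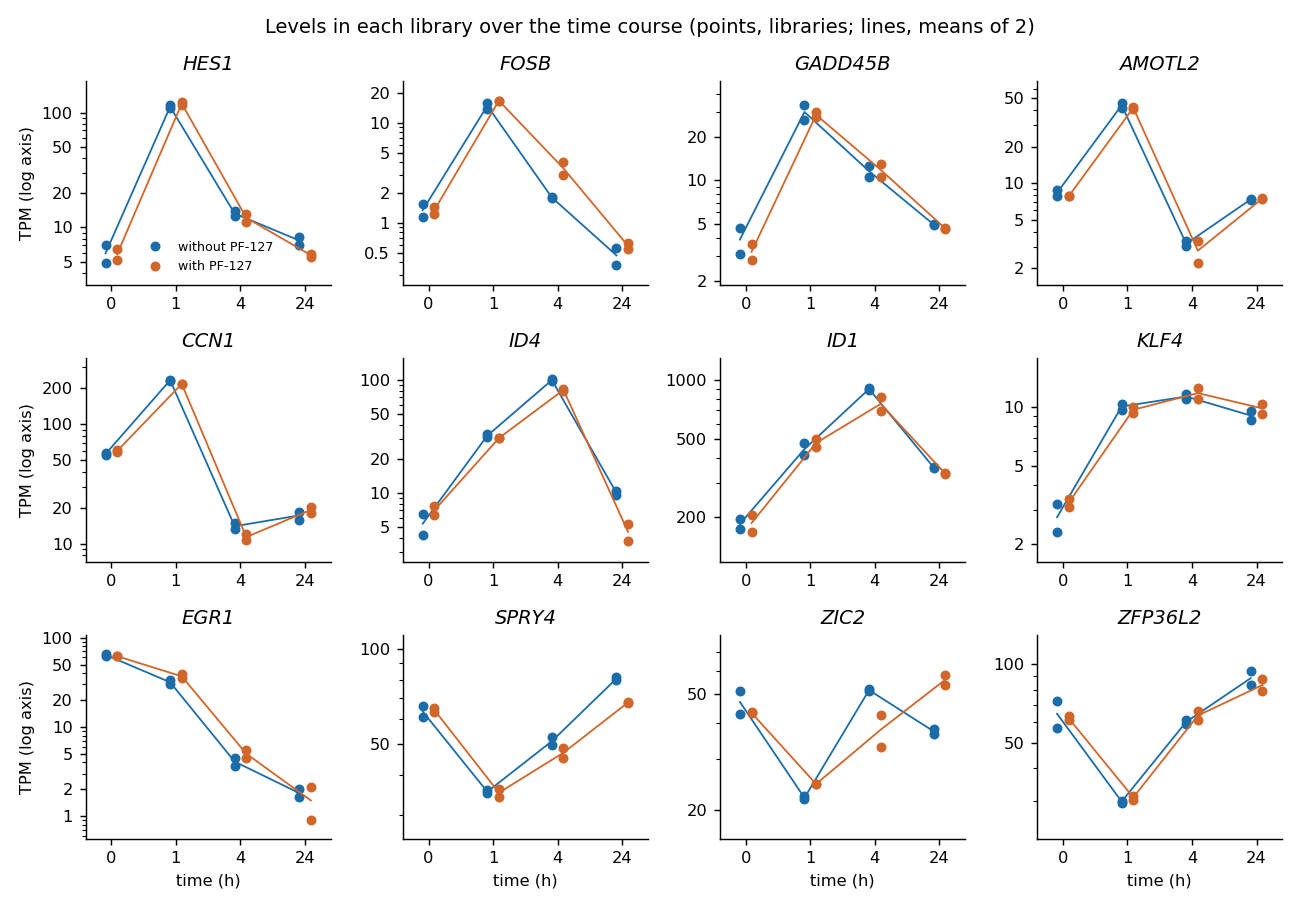
TPM of 12 genes in each library (log y axis) at 0, 1, 4 and 24 h; points are libraries, lines join the means of 2 libraries without (blue) and with PF-127 (orange). HES1, FOSB, GADD45B, AMOTL2 and CCN1 peak at 1 h, ID4 and ID1 are higher still at 4 h, and EGR1 is lower again at 4 h and lies between 0.897 and 2.10 TPM at 24 h.

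Of 26 immediate early transcription factors tested, 11 rose and 3 fell, against 4.23% and 6.13% of all genes. The same shares are the background for the list counts that follow. Besides HES1 and FOSB, the rises included KLF6, a growth-inhibitory zinc-finger factor, at 17.3, 18.8, 19.8 and 19.7 TPM at 0 h and 53.1, 51.5, 54.6 and 53.2 TPM at 1 h. Those groups were widely apart and the log2 difference was 1.45 ± 0.04 (adjusted p = 1.5e-06). KLF4, a reprogramming factor, went from 3.199, 2.31, 3.11 and 3.43 TPM to 10.4, 9.75, 10.05 and 9.39 TPM (log2 difference 1.45 ± 0.10), and was still between 11.04 and 12.6 TPM at 4 h and between 8.62 and 10.5 TPM at 24 h. CSRNP1, a nuclear factor that AXIN1 induces, rose from a mean of 10.8 ± 0.792 to 29.8 ± 1.07 TPM (SD, n = 4), and ID1 is described with the BMP genes. JUN and ATF3, named here after their values were seen, rose from 28.7 ± 1.39 to 58.2 ± 2.92 TPM (log2 difference 0.99 ± 0.05) and from 6.51 ± 0.5604 to 14.96 ± 1.66 TPM (1.08 ± 0.08). The falls were JUNB, EGR1 and ARC. JUNB, a JUN relative, stood at 13.5, 14.1, 12.4 and 15.95 TPM at 0 h and 5.73, 7.71, 7.63 and 7.18 TPM at 1 h, without overlap (log2 difference -0.90 ± 0.10). EGR1, the zinc-finger factor that serum and ERK induce, stood at 66.1, 62.4, 62.3 and 61.7 TPM at 0 h and 29.96, 33.3, 38.8 and 34.9 TPM at 1 h. Every library of 1 h was below every library of 0 h, with the libraries without PF-127 lowest, and the log2 difference was -0.87 ± 0.07 (adjusted p = 0.00055). FOS itself, also named after its values were seen, did not pass the test: its level was 30.3 ± 1.597 TPM at 0 h and 32.01 ± 4.48 TPM at 1 h (SD, n = 4; adjusted p = 0.65). Neither did MYC, at 55.3 ± 2.07 and 50.5 ± 2.21 TPM, nor SRF, at 76.7 ± 3.296 and 81.03 ± 1.86 TPM.

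Of 25 immediate early regulators other than transcription factors, 10 rose and 4 fell; 2 fell when replicate 2 of 1 h was left out in either arm. PPP1R15A (GADD34), which recruits the phosphatase that restores translation after stress, went from 20.9, 16.03, 15.4 and 19.5 TPM to 51.1, 54.2, 55.3 and 51.8 TPM, and its groups did not overlap (log2 difference 1.52 ± 0.10, adjusted p = 0.00012). PIM1, a survival kinase controlled by its mRNA level, was at 50.8, 48.2, 54.1 and 58.9 TPM and then at 134, 136, 134 and 138 TPM, a log2 difference of 1.34 ± 0.05. RHOB, a small GTPase of endosomes and actin, rose from 40.7 ± 3.92 to 87.9 ± 3.72 TPM, and CITED2, a CBP and p300 binding co-regulator, from 42.4 ± 3.31 to 89.1 ± 3.59 TPM (SD, n = 4 each). PLK2, a polo-like kinase, rose from a lower level, 2.12 ± 0.356 to 5.905 ± 0.365 TPM. MCL1, an anti-apoptotic BCL2 relative, rose by less, with a log2 difference of 0.24 ± 0.04. The falls were ZFP36L2, TXNIP, ARRDC4 and PIM3. ZFP36L2, which binds AU-rich elements and speeds mRNA decay, stood at 72.4, 56.7, 63.2 and 60.96 TPM at 0 h and 29.5, 30.002, 30.3 and 31.4 TPM at 1 h. The 4 libraries of 1 h lay close together, all below those of 0 h, and the log2 difference was -1.03 ± 0.07 (adjusted p = 0.00025). TXNIP, the thioredoxin-binding arrestin that limits glucose uptake, fell from 21.6 ± 0.878 to 12.7 ± 0.879 TPM.

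Of 17 YAP target genes tested, 6 rose and 2 fell, and the 4 that rose at least 2-fold are direct and quick targets of YAP and TEAD. AMOTL2, an angiomotin that also holds YAP in check, stood at 7.84, 8.89, 7.82 and 7.82 TPM at 0 h and 45.96, 41.9, 42.6 and 41.1 TPM at 1 h. The libraries within each time lay close together, and the log2 difference was 2.27 ± 0.06 (adjusted p = 5e-07). CCN1 (CYR61), a secreted matricellular protein, went from 57.5, 54.98, 58.05 and 61.4 TPM to 236, 231, 219 and 217 TPM (log2 difference 1.94 ± 0.05). NUAK2, a kinase of the AMPK family that acts on myosin phosphatase, went from 14.6, 13.7, 13.2 and 12.9 TPM to 53.4, 57.4, 54.9 and 48.6 TPM (log2 difference 1.90 ± 0.05). CCN2 (CTGF), a CCN1 relative, was already at 99.8, 111, 111 and 101.4 TPM at 0 h and reached 242, 248.9, 212 and 223 TPM at 1 h (log2 difference 1.12 ± 0.06). All 4 groups of libraries at 1 h were clear of those at 0 h. The 2 smaller rises were AJUBA, a LIM protein that inhibits LATS, with a log2 difference of 0.45 ± 0.06, and LATS2, the kinase that phosphorylates YAP, with 0.39 ± 0.07. AXL, a receptor kinase, and TEAD1, the DNA-binding partner of YAP, were the 2 that fell, with log2 differences of -0.29 ± 0.06 and -0.26 ± 0.06, and neither passed when any of 6 libraries was left out, replicate 2 of 0 h in either arm being the exceptions with 1 fall each. The median log2 difference of the 17 was 0.03, beside -0.03 over all genes tested, and became -0.01 when mitochondrial mRNAs were left out of the total, so the rises belonged to a few members. At 4 h each of the 4 stood below its level of 0 h: AMOTL2 was then between 2.22 and 3.36 TPM, CCN1 between 10.7 and 14.8, NUAK2 between 5.35 and 10.7 and CCN2 between 7.44 and 13.7 TPM. Beside CCN2, the antisense gene CCN2-AS1 was listed at almost the same levels, 94.7 ± 11.5 and 204 ± 33.5 TPM; it overlaps CCN2 on the opposite strand. THBS1, a secreted matrix protein that YAP also induces, rose from 9.897 ± 0.863 to 28.8 ± 2.75 TPM, and THBS1-AS1, which overlaps it, from 9.38 ± 2.29 to 25.8 ± 2.93 TPM. Whether the counting used the strand is not stated, so the reads of these genes and their antisense partners cannot be told apart.

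Of 7 BMP target genes tested, 3 rose and none fell, and all 3 were ID genes, which encode helix-loop-helix proteins that keep other such factors off DNA. With all 16 libraries of the time course in the fit, 4 of the 7 rose and 2 fell. With size factors or a replicate block 4 rose and none fell. ID4 stood at 6.43, 4.19, 7.59 and 6.36 TPM at 0 h and 32.8, 30.99, 30.4 and 30.4 TPM at 1 h. The libraries of 1 h lay close together, far above all of 0 h, and the log2 difference was 2.19 ± 0.13 (adjusted p = 8.7e-05). ID1, by far the most abundant, went from 197, 174, 168 and 206 TPM to 413, 477, 499.7 and 456 TPM without overlap (log2 difference 1.31 ± 0.08). ID2 rose from 10.9 ± 0.995 to 16.8 ± 0.914 TPM. All 3 stood higher at 4 h than at 1 h in every library: ID4 was then between 78.998 and 101.1 TPM, ID1 between 692 and 913 and ID2 between 25.98 and 38.97 TPM. BMP2, a ligand of this pathway, rose from 6.06, 6.63, 5.71 and 5.21 TPM to 15.1, 12.97, 12.02 and 10.4 TPM, again without overlap (log2 difference 0.97 ± 0.08), and was between 22.1 and 26.1 TPM at 4 h. The feedback inhibitors SMAD6 and SMAD7 did not pass the test, at 1.23 ± 0.0886 and 0.668 ± 0.0837 TPM and at 10.2 ± 0.821 and 8.86 ± 0.737 TPM.

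Of 10 Notch target and pathway genes, 3 rose and 2 fell, against 4.23% and 6.13% of all genes tested. The rises were HES1, its relative HES4 and NRARP, an ankyrin-repeat inhibitor of Notch. HES4 stood at 3.27, 2.102, 2.51 and 2.45 TPM at 0 h and 8.76, 11.4, 6.49 and 5.68 TPM at 1 h; the libraries without PF-127 were the higher ones, the groups did not overlap, and the log2 difference was 1.31 ± 0.16. At 4 h it was between 35.8 and 44.5 TPM. NRARP rose from 37.8 ± 2.98 to 58.5 ± 1.75 TPM. The receptors NOTCH1 and NOTCH3 fell, with log2 differences of -0.43 ± 0.08 and -0.40 ± 0.05. NOTCH1 did not pass the test when replicate 1 of 0 h without PF-127 or either replicate of 1 h with PF-127 was left out, nor with GC and length trends removed (adjusted p = 0.071).

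Among ERK feedback genes falls outnumbered rises. Of 17 tested, 8 fell and 2 rose; leaving out a library left 5 to 8 falls, 5 without replicate 2 of 1 h with PF-127. The Sprouty genes, which encode inhibitors of the receptor-to-RAS step, moved together: SPRY1, SPRY2 and SPRY4 fell, as did SPRED3, a Sprouty relative. SPRY4 was at 65.9, 60.99, 63.2 and 65.1 TPM at 0 h and at 35.04, 35.8, 34.2 and 36.2 TPM at 1 h. Spread within each time was small beside the difference, and the log2 difference was -0.84 ± 0.04 (adjusted p = 3.7e-05). SPRY1 went from 14.2, 14.3, 13.4 and 11.3 TPM to 4.35, 6.15, 5.44 and 6.796 TPM (log2 difference -1.11 ± 0.13, adjusted p = 0.0031), and SPRY2 from 40.9, 39.7, 40.4 and 45.6 TPM to 25.3, 28.6, 25.2 and 25.6 TPM (log2 difference -0.65 ± 0.06). Neither gene's groups overlapped. The phosphatase genes did not move together: DUSP2 and DUSP6 fell with log2 differences of -0.69 ± 0.12 and -0.53 ± 0.10, while DUSP1 and DUSP10 rose with 0.47 ± 0.11 and 0.78 ± 0.08. DUSP4 and DUSP5 did not pass the test, at -0.15 ± 0.17 (adjusted p = 0.63) and 0.28 ± 0.08 (adjusted p = 0.059). Without replicate 1 or 2 of 0 h with PF-127, replicate 2 of 1 h without it or either replicate of 1 h with it, the rises numbered 1; DUSP10 passed in every such fit. PHLDA1, an ERK-induced pleckstrin-domain protein, fell from 27.2 ± 1.81 to 17.1 ± 0.811 TPM, and IL17RD (SEF) fell with a log2 difference of -0.28 ± 0.05. The ETS factors ETV4 and ETV5, readouts of FGF signalling, did not pass the test, at 105 ± 4.56 and 101.4 ± 2.601 TPM and at 14.4 ± 0.8702 and 15.1 ± 1.08 TPM. At 4 h SPRY4 was between 45.4 and 52.7 TPM and SPRY2 between 40.6 and 51.3 TPM, while EGR1, induced by the same pathway, was between 3.64 and 5.54 TPM.

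The neighbours ZIC2 and ZIC5, zinc-finger transcription factors of the neural plate and of primed pluripotency, fell together. They lie on chromosome 13 and start 9.86 kb apart on opposite strands. ZIC5 stood at 27.4, 23.5, 25.1 and 21.3 TPM at 0 h and 8.505, 9.61, 10.3 and 12.4 TPM at 1 h, and ZIC2 at 51.4, 42.7, 43.1 and 43.3 TPM and 21.8, 22.3, 24.6 and 24.6 TPM. Both were lower in all 4 libraries of 1 h, with log2 differences of -1.18 ± 0.11 and -0.92 ± 0.07, and they did not overlap with 0 h. At 4 h ZIC5 was between 23.6 and 27.5 TPM and ZIC2 between 33.1 and 52.2 TPM. Among 19 pluripotency genes, 7 fell and 1 rose. FOXD3, a forkhead factor of the epiblast and neural crest, had the next largest fall after ZIC2, from 25.2 ± 1.39 to 14.8 ± 1.54 TPM. Smaller falls followed: NANOG went from 52.7, 52.7, 55.7 and 53.3 TPM to 42.9, 46.8, 47.1 and 47.4 TPM, a log2 difference of -0.22 ± 0.04, and SOX2, PRDM14 and PODXL fell with log2 differences of -0.17 ± 0.04, -0.18 ± 0.04 and -0.14 ± 0.03. OTX2, a homeobox factor of the primed state, rose from 24.2 ± 1.21 to 29.7 ± 1.65 TPM. POU5F1 did not pass the test (adjusted p = 0.51). The 7 falls became 3 without replicate 1 of 0 h in either arm or without either replicate of 1 h with PF-127, and 4 without replicate 2 of 1 h without it. They were 5 once the GC trend was removed. NANOG lost its call in 4 and OTX2 in 5 of the 8 fits that left out a library.

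**Figure D3:**
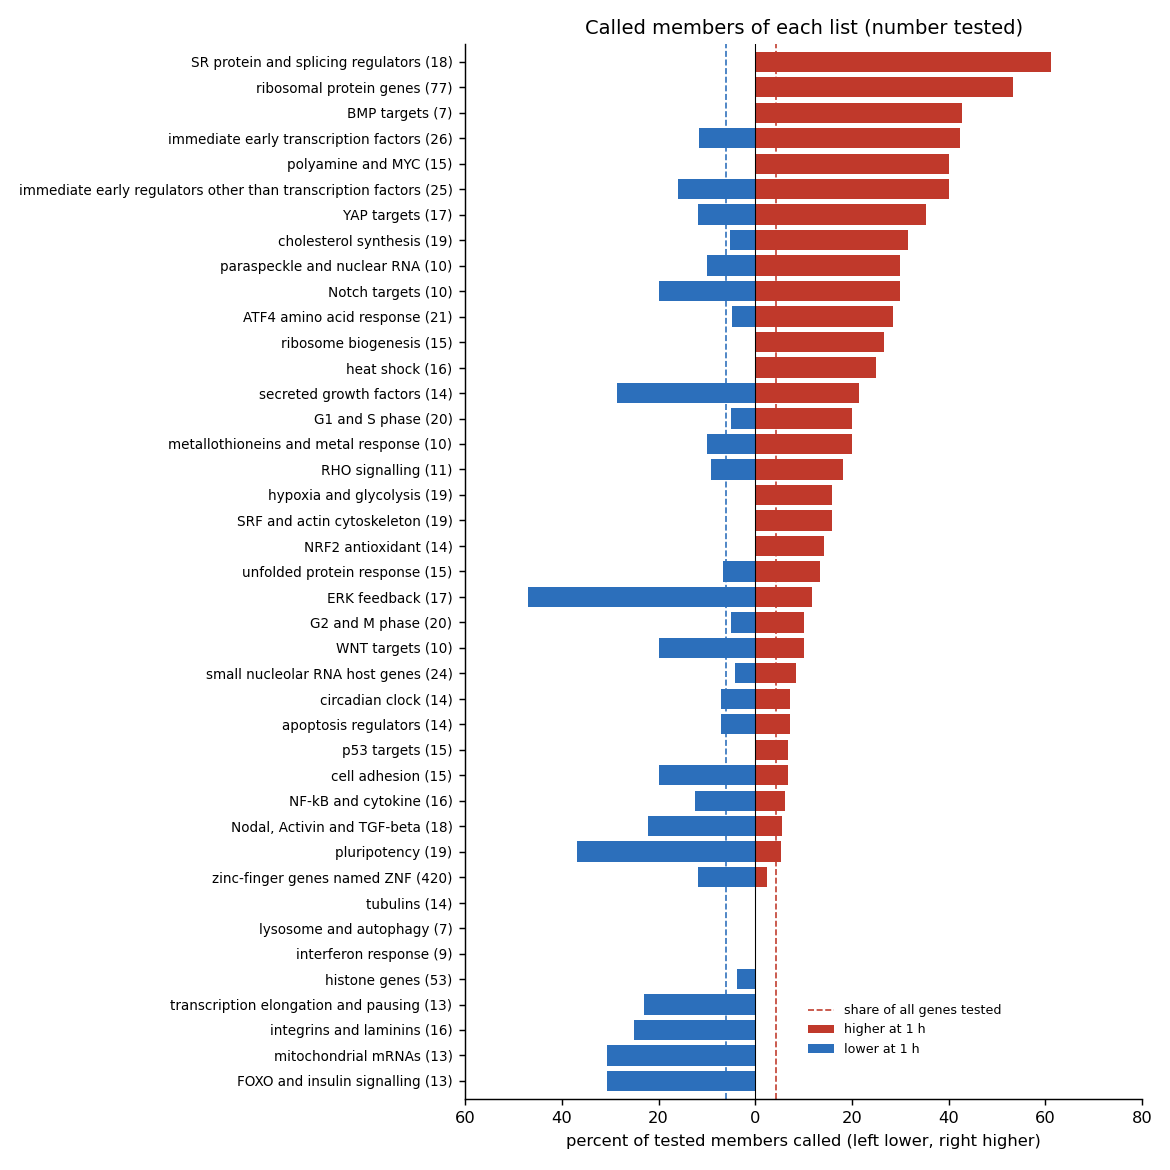
Share of the tested members that passed the test in each list with at least 7 tested, higher at 1 h to the right in red and lower to the left in blue, in percent, with the number tested in brackets; dashed lines are the shares over all genes tested, 4.23% and 6.13%. Splicing regulators and ribosomal protein genes reach farthest to the right, ERK feedback genes farthest to the left.

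Broad shifts of small size went with these changes. Of 77 ribosomal protein genes, 41 rose and none fell, with a median log2 difference of 0.18 beside -0.03 over all genes. RPS13 is an example, at 383, 477, 465 and 482 TPM at 0 h and 538, 542, 569 and 584 TPM at 1 h. Replicate 1 without PF-127 was the lowest library of 0 h for it, as for RPL9 and RPL39. Together these genes took 5.21% ± 0.320 of the TPM at 0 h and 5.89% ± 0.258 at 1 h (SD, n = 4), with all libraries of 1 h above those of 0 h (exact permutation test, two-sided, p = 0.0286, the smallest that 70 splits allow, 0.0572 adjusted over the 2 shares tested). Within arms the share went from 4.78% and 5.20% to 5.57% and 5.80% without PF-127, and from 5.34% and 5.53% to 6.12% and 6.07% with it. The number of ribosomal protein genes called was between 3 and 20 when any of 7 libraries was left out, lowest without replicate 1 of 1 h with PF-127, and 45 without replicate 2 of 0 h without it, while the median stayed between 0.16 and 0.20. RPS13 lost its call in 6 of these 8 fits. Without mitochondrial mRNAs 22 of the 77 rose, with a median of 0.13, and with size factors 51 rose. With no filter on low levels 10 rose. Ribosomal protein genes are short and abundant, and many have near-identical pseudogenes with which reads could be shared.

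Genes for mRNA splicing rose as well: 11 of 18 SR proteins and splicing regulators were higher and none lower. CLK1, a kinase of SR proteins whose own mRNA is kept in the nucleus at rest, was at 16.7, 16.8, 17.1 and 17.5 TPM at 0 h and 25.2, 24.3, 26.1 and 24.7 TPM at 1 h. These groups were well apart, and the log2 difference was 0.53 ± 0.04 (adjusted p = 0.00062). SRSF10 and RBM39 rose with 0.32 ± 0.04 and 0.30 ± 0.03, and the remaining called members by less. The count was 6 without either replicate of 1 h with PF-127, and 7 without replicate 1 of 0 h or replicate 2 of 1 h without it or replicate 2 of 0 h with it. It was also 7 without mitochondrial mRNAs, and 12 with size factors. Among genes of polyamine synthesis and the MYC network 6 of 15 rose, led by MXD1, a MYC antagonist, with 0.48 ± 0.08. In the cholesterol pathway 6 of 19 rose, IDI1, an isoprenoid isomerase, most with 0.33 ± 0.05. Over all genes tested 4.23% rose. The polyamine and cholesterol counts were both 2 to 4 when any library other than replicate 2 of 0 h without PF-127 was left out. Without that library they were 6 and 7.

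In the opposite direction, 50 of 420 zinc-finger genes named ZNF fell and 10 rose, against 6.13% and 4.23% of all genes tested. The largest falls among them were ZNF786, from 14.1 ± 1.57 to 8.01 ± 1.501 TPM, and ZNF853, from 5.73 ± 0.353 to 3.15 ± 0.245 TPM. The falls numbered 17 to 26 when any of 7 libraries was left out, and 42 without replicate 2 of 0 h without PF-127. They numbered 72 without mitochondrial mRNAs and 40 with size factors. Of 16 integrin and laminin genes 4 fell and none rose, against 6.13% and 4.23% of all genes tested. LAMA5 fell most, with -0.40 ± 0.06, and 1 of these genes fell after GC and length trends were removed. None of 9 interferon response genes, 7 lysosome genes or 14 tubulin genes passed the test by limma, against 10.4% of all genes tested. At that share, lists this small can hold no call. In that order, 0, 4 and 3 of them had an unadjusted p under 0.05 by limma. Without replicate 2 of 0 h without PF-127, 1 lysosome gene fell, as 2 did with a filter of 5 TPM or without mitochondrial mRNAs. With size factors 2 tubulin genes rose, and 7 or 5 once a GC or a GC and length trend was removed; 1 interferon gene rose under either.

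Mitochondrial mRNAs, 13 in all, took 29.2% ± 0.990 of the TPM at 0 h and 26.8% ± 2.14 at 1 h (SD, n = 4). The groups overlapped (exact permutation test, two-sided, p = 0.0857, adjusted 0.0857), and the shares were 29.9% and 29.8% at 0 h against 29.6% and 27.5% at 1 h without PF-127, and 29.5% and 27.8% against 24.99% and 25.3% with it. Of the 13, 4 fell, MT-CO1, a subunit of cytochrome oxidase, among them with -0.30 ± 0.04; 1 fell when either replicate of 1 h with PF-127 was left out. Because TPM adds up to a fixed total, this share sets the scale of all other genes. Scaled by size factors, 54.3% of the called genes were higher at 1 h, against 40.8% as deposited; without the mitochondrial mRNAs it was 19.9%, and the median of all genes was then -0.07. None of the named genes changed sign under either; of 183 that passed the test 9 lost their call with size factors, and 22 of 179 without the mitochondrial mRNAs, where the 4 mitochondrial genes have no value.

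The direction of the small changes went with the GC content and the length of the transcript. Called rises had a median GC of 43.2%, called falls 56.2% and all genes tested 48.7%, taken from the longest annotated transcript. By bins of 5 points, the median log2 difference fell from 0.01 without and 0.12 with PF-127 in transcripts of 30 to 35% GC to -0.19 and -0.21 at 70 to 75%. When the trend was removed from each library, 1978 of 17490 genes were called, 1149 higher and 829 lower, and 1320 of the 1898 were among them. Median GC was then 48.4% for rises and 48.1% for falls. The large changes did not share the difference in GC: the 25 largest rises and the 25 largest falls had median GC of 55.0% and 55.4%. With the GC trend removed none of the 183 named genes that passed the test changed sign and 14 lost their call. Ribosomal protein genes, at a median of 47.9%, then had 55 rises; splicing regulators, at 40.4%, had 11; and ZNF genes, low in GC at 43.5%, had 57 falls and 12 rises. Median transcript lengths of these lists were 1.87, 3.98 and 4.06 kb, in that order, and that fit left the length trend in place. Called rises had a median transcript length of 2.62 kb and called falls 4.22 kb, with neither trend removed. With GC and length trends both removed, 1511 genes were called, and 1126 of the 1898 were among them. Ribosomal protein genes then had 42 rises, splicing regulators 11, and ZNF genes 40 falls and 13 rises. Of the 183 named genes, 33 lost their call in that fit and none changed sign. Beyond such counts, the part of GC and length in the small changes was not tested.

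**Figure D4:**
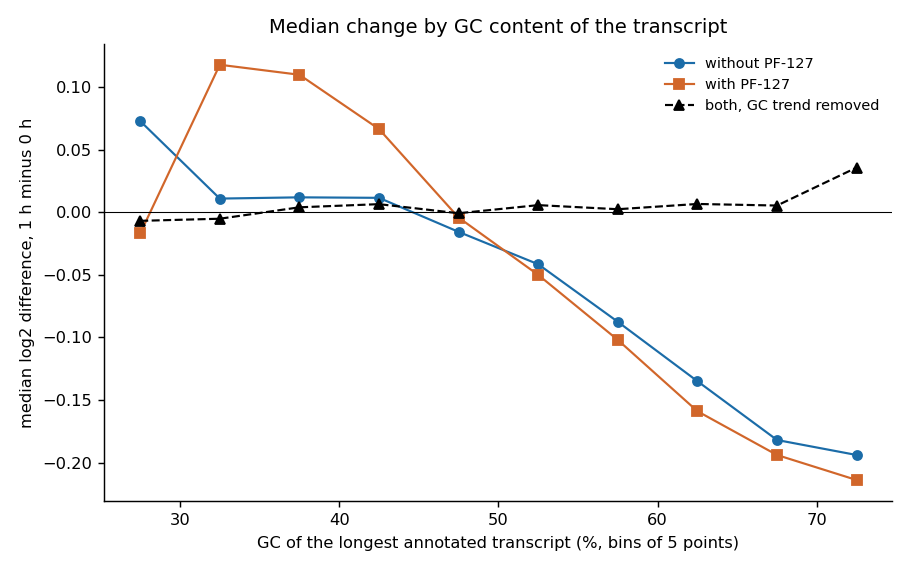
Median log2 difference, 1 h minus 0 h, of genes in bins of 5 points of transcript GC (x axis, percent), without PF-127 (blue), with it (orange) and for both after the GC trend was removed (black). In both arms the median goes down from about 40 to 70% GC; the leftmost bin holds only 37 genes.

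Genes that rose strongly were compact, and so were the leading falls of protein-coding genes. ZIC5, SPRY1, ZFP36L2, ZIC2, JUNB and EGR1 span 8.95, 6.97, 4.21, 5, 1.82 and 3.83 kb, while JRKL, a further large fall, spans 118 kb. The 28 protein-coding genes that rose at least 2-fold had a median span of 5.96 kb from start to end and 4 exons, against 33.1 kb and 8 exons for all 13311 tested protein-coding genes. All 656 rises had a median of 22.5 kb and the 944 falls 23.8 kb. HES1 (chr3:194136145-194138732) spans 2.59 kb, GADD45B (chr19:2476122-2478259) 2.14 kb, ID1 (chr20:31605283-31606515) 1.23 kb and CCN1 (chr1:85580761-85583962) 3.20 kb, whereas AMOTL2 (chr3:134355874-134375479) and NUAK2 (chr1:205302059-205321791) span 19.6 and 19.7 kb. The positions are those of GENCODE release 29 on GRCh38, and 95.5% of the tested genes had one.

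The change with time was then set side by side in the arms with and without PF-127. No gene passed the test of the time by PF-127 interaction by limma, here or under any alternative in which it was fitted; 1109 genes (6.05%) had an unadjusted p under 0.05. The arms share no library, so each repeats the other, although a culture or day may be common to both. Taken alone, with 4 libraries each, the arm without PF-127 gave 15 called genes and the arm with it 24, of which 12 were shared, and all had the same sign in the other arm. Of 2702 genes with an unadjusted p under 0.05 without PF-127, 84.9% changed the same way with it, and 86.0% of 3877 the other way round, against 68.4% over all genes tested. The Pearson correlation of the log2 differences of the 2 arms was 0.37 over all 18318 genes tested. AMOTL2 is an example of close arms, with log2 differences of 2.26 and 2.28 without and with PF-127. The arms lay farther apart for SPRY1 (-1.30 and -0.91), ZIC5 (-1.39 and -0.97) and HES4 (1.59 and 1.02), and the interaction of these genes did not pass the test.

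**Figure D5:**
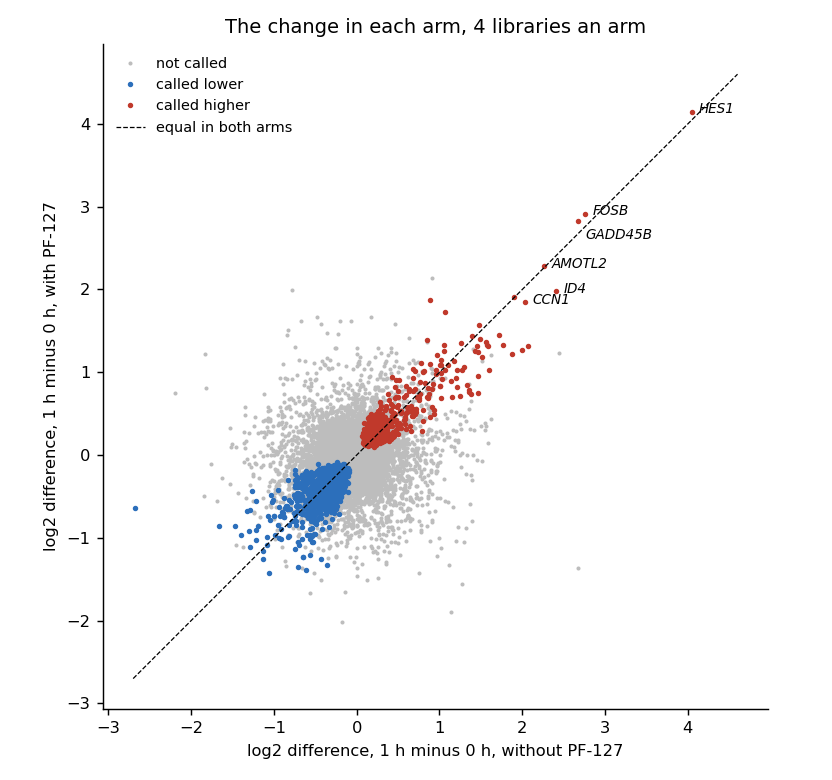
Each point is a gene, with its log2 difference, 1 h minus 0 h, without PF-127 on the x axis and with PF-127 on the y axis, from 4 libraries each; coloured points passed the test over all 8. HES1, FOSB, GADD45B and AMOTL2 lie on the dashed line of equal change.

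Levels at 4 h and 24 h show how long the large rises lasted. Of the 49 genes that rose at least 2-fold, 20 had all 4 libraries of 4 h above all 4 of 0 h, and 10 had them below. At 24 h these counts were 6 and 14. Over all 18318 genes tested, the counts above and below were 2242 and 4273 at 4 h, and 4163 and 2366 at 24 h. The 25 largest rises had a median log2 difference from 0 h of 1.41 at 1 h, 0.35 at 4 h and -0.17 at 24 h. CCN1, at 15.9 and 20.1 TPM at 24 h, ended under its level of 0 h, while SSTR1, a somatostatin receptor, rose from 1.78 ± 0.149 to 6.67 ± 0.626 TPM and then stood between 26.97 and 40.7 TPM at 4 h. The 25 largest falls had medians of -0.80, -0.03 and 0.03. These later levels are given as a description, with no test.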

How the data were processed

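PolyA RNA was purified and made into libraries with a VAHTS Universal V6 kit, per the labels' protocols. Per the submitters' processing notes, the tools were FastQC 0.11.9, Trim Galore 0.6.7, cutadapt 4.1, STAR 2.7.10a, featureCounts 2.0.1 and DESeq2 1.36.0 in R 4.2.0, with the build hg38 (GRCh38); their settings and the strandedness are not given in the sources used here. The authors deposited TPM of 37415 genes in 62 libraries, each with a sum of 1000000 TPM. Counts were not used here, so no count test, depth or counting interval is given.

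From the 8 libraries, limma 3.58.1 (R 4.3.3, data.table version 1.17.8) was fitted to log2(TPM + 1) with time and PF-127 as terms and a trend of the spread on the mean. Genes entered the test with 1 TPM or more in at least 2 of the 8 libraries. Tests were two-sided with Benjamini-Hochberg adjustment, and the procedure was tested on simulated data. Of the called genes, 110 rises and 143 falls have an identifier only and are not named. Replicate numbers did not pair the libraries, since the correlations of same-numbered deviations were between -0.04 and 0.03. Promoters came from RefSeq and positions from GENCODE release 29; these and the drawings used Python 3.11.15 with pandas 2.3.3 and matplotlib 3.10.9.

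Genes were named by a rule: the 25 largest rises and 25 largest falls among called genes with a unique symbol, a mean of at least 5 TPM at the higher time and groups that do not overlap, and from each list up to 6 called members (the first 2 of a list with none). Short RNA genes were left out, and 1 further gene is not reported here. Genes named outside the rule were chosen after their values were seen: FOS, JUN, ATF3, MYC, SRF, SMAD6, SMAD7, AXL, TEAD1, SOX2, PODXL, POU5F1, DUSP1, DUSP6, IL17RD, ETV4, ETV5, SPRED3, DUSP4, DUSP5, ARC, ARRDC4, PIM3 and the markers of cell types that were not called. The comparison, its members and the lists were chosen with earlier results of these data known. Lists are described by counts and medians, with no set test. Alternatives were another pseudocount, other filters, size factors, TPM without mitochondrial mRNAs, all 16 libraries, a replicate block, each arm alone and leaving out each library; removal of GC and length trends was chosen after seeing the data.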

Additional observations from a re-analysis of the deposited data

Results flagged for a closer look

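Among 388 groups of 4 libraries (a named gene or share at 1 time), 21 (5.41%) had a library whose gap to the nearest other library, as a share of the whole range, passed Dixon's critical value for 4 samples; chance flags about 1 in 20 groups. At 0 h a high library was seen for AMOTL2 (8.89 TPM), ZIC2 (51.4 TPM) and OTX2 (26.0 TPM), and a low library for ARHGEF2 (23.9 TPM), CDH2 (13.8 TPM), AFF1 (45.2 TPM), MT-ND5 (5657 TPM), RPL9 (353 TPM), RPL39 (319 TPM) and the mitochondrial share (27.8%). At 1 h a high library was seen for KLF7-IT1 (12.7 TPM), SPRY2 (28.6 TPM), PHLDA1 (18.3 TPM), FGF2 (99.9 TPM), DDIT3 (29.2 TPM), SLC30A1 (23.6 TPM), MCL1 (227 TPM), LAMB2 (27.8 TPM) and ZNF17 (5.79 TPM), and a low library for PARS2 (6.21 TPM) and NANOG (42.9 TPM). AMOTL2, ZIC2, SPRY2 and PHLDA1 passed the test in every fit that left out a library.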

How the results depend on the processing

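None of the 183 named genes that passed the test changed sign under an alternative. Of the 25 largest rises, 24 passed in every fit without a library, PSMD6-AS1 being the exception, and 19 of the 25 largest falls did; MYB-AS1, C10orf95, GAU1, LAMA5-AS1, SAP25 and NYAP1 did not. The number of genes called moved more. It was 1898, and 1869 with a pseudocount of 0.1, 2171 with a filter of 5 TPM, 2074 with size factors, 2248 without mitochondrial mRNAs, 2497 with all 16 libraries, and 1978 and 1511 with a GC or a GC and length trend removed. Without a filter it was 1029, of 29771 genes tested. In the arm without PF-127 alone it was 15 and with PF-127 alone 24, from 4 libraries each. Leaving out each library gave 596 to 2153. No gene was called for the interaction in any fit with both arms. The numbers of replicates do not pair the libraries; with a replicate block 1343 genes were called and 34 of the 183 named genes lost their call. Depth is unknown, so how far it limits the low genes cannot be given.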

Other observations

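Several genes of groups not described above changed, and apart from NFKBIA and ICAM1 each passed the test in every fit that left out a library. PMAIP1 (NOXA), a BH3-only protein that binds MCL1, was the 1 of 15 p53 targets to pass (6.67%, against 10.4% of all genes). It went from 128, 130.4, 122 and 119.6 TPM at 0 h to 187, 180.3, 194 and 198 TPM at 1 h, without overlap. Of 16 NF-kB and cytokine genes 1 rose and 2 fell, against 4.23% and 6.13% of all genes. The riser was NFKBIZ, an atypical IkB protein induced early in inflammation, from 3.85, 3.704, 4.36 and 4.14 TPM to 6.99, 7.05, 7.59 and 7.27 TPM. NFKBIA and ICAM1 fell with -0.31 ± 0.06 and -0.36 ± 0.09, but lost their calls in 5 and 7 of the 8 fits that left out a library. MALAT1, a nuclear long non-coding RNA, fell from 21.6 ± 1.84 to 14.5 ± 1.62 TPM (SD, n = 4). DDIT4, a brake on mTOR signalling that ATF4 and hypoxia induce, fell with a log2 difference of -0.37 ± 0.04, and stood between 183 and 191 TPM at 4 h against a mean of 49.3 ± 2.42 TPM at 0 h. In the cell cycle lists CCND1, which encodes cyclin D1, fell with -0.30 ± 0.03, and PCNA, the clamp of DNA polymerase, rose with 0.22 ± 0.03.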
